A study of Mus musculus with 8 samples.

Results

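The genes described are 10 textbook targets of the transcription factor p53, taken from the 21705 gene names of the deposited table by symbol: Mdm2, Ccng1, Phlda3, Btg2, Pmaip1, Bbc3, Bax, Zmat3, Trp53inp1 and Eda2r. All 10 were found and all 10 passed the filter on low values. Messenger RNA of mouse kidney cortex had been sequenced in 8 libraries, all from mice of mixed strain background. The control group consisted of 4 libraries with the genotype Sav1+/+ and vehicle treatment (Ctrl), and the other group of 4 libraries with the genotype Sav1-/- and tamoxifen treatment (KS). Sav1 encodes salvador, the scaffold of the Hippo kinases. Genotype and treatment changed together. The labels give no age or sex of the mice and no promoter or cell type behind the deletion. The series title names senescence, a lasting arrest of the cell cycle, and many genes that p53 activates act in such an arrest.

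The protein p53 is a transcription factor that is kept low by the ubiquitin ligase MDM2 and is stabilised by DNA damage and other stress. It binds pairs of a 10-base half-site and switches on genes for cell cycle arrest, DNA repair and cell death, and also Mdm2 itself, which closes a negative feedback loop. In injured kidney tubules p53 signalling is known to accompany arrest and death of epithelial cells. Many of its targets are also switched on by other transcription factors, so their level is not a direct measure of p53 activity.

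The table of RefSeq promoters (GRCm38.p6) held entries for 7 of the 10 genes. The stretches printed here run from 250 to 51 bases before the start site and overlapped no annotated exon of GENCODE M21. They show which of the genes carry letters of the p53 half-site close to their start, beside the expression values that follow. In Ccng1 and Bax the capitals mark a pair of half-sites and in Mdm2 a single one, while Btg2 and Phlda3 had no exact match.
Ccng1, chr11:40755337-40755536, - strand: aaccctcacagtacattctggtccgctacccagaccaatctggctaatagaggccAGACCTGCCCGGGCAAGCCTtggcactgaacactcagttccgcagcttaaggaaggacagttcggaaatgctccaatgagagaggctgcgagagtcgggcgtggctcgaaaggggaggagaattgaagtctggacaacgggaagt
Bax, chr7:45466949-45467148, - strand: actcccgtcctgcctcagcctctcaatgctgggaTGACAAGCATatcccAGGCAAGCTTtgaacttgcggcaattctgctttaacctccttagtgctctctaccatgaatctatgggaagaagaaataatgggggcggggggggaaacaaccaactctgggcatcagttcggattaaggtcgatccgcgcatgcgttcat
Mdm2, chr10:117710809-117711008, - strand: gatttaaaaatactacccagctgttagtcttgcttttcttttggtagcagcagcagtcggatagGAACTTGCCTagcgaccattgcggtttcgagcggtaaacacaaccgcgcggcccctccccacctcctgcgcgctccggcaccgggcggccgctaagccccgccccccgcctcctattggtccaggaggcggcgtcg
Btg2, chr1:134079206-134079405, - strand: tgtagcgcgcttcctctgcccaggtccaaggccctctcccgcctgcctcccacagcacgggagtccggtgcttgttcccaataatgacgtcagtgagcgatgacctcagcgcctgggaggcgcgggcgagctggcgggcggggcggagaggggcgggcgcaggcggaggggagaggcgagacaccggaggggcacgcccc
Phlda3, chr1:135765835-135766034, + strand: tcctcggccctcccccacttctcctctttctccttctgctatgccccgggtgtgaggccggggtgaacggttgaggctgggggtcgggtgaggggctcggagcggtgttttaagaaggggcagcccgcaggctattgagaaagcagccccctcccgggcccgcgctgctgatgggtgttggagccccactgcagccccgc

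The search used the p53 half-site consensus, a 10-base motif that reads the same on both strands, over the 250 bases before the start. An exact half-site lay in 7.13% of all 32851 promoter windows, and in those of Ccng1, Bax and Mdm2. A pair of half-sites at most 13 bases apart, with the invariant C and G of each kept and at most 2 other bases off the consensus, lay in 3.34% of windows. Ccng1 had such a pair with 1 base off the consensus and no gap (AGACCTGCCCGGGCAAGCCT, from 195 to 176 bases before the start), as had 0.505% of windows with at most 1 base off. Bax had one with 2 bases off and a gap of 5 bases (TGACAAGCATATCCCAGGCAAGCTT, from 216 to 192 bases before the start). The entries of Btg2, Phlda3, Bbc3 and Eda2r held no exact half-site in these windows. A match describes letters, not binding, and sites inside introns were not searched.

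Expression is given in the authors' normalized units, in which the upper quartile of the genes above 0 is about 1000 in each library. A gene was called higher or lower when limma's adjusted p, over all tested genes and on log2(value + 1), was under 0.05. Depth was estimated from the smallest step of the values, at about 20500000 to 25000000 reads in control and 15700000 to 20900000 in KS libraries. Sav1 itself had values of 1504.4, 1743.2, 958.9 and 1192.8 in the control and 983.0, 914.0, 982.0 and 713.6 in the KS libraries. It was called lower (log2 fold change -0.56 ± 0.19, limma adjusted p = 0.022) with ranges that overlapped, and was not called under equal totals (limma adjusted p = 0.375) or without control replicate 1 or 2 (limma adjusted p = 0.0611 and 0.057). Of 13677 genes tested, 43.9% were called higher and 25.2% lower in the KS group, at a median log2 fold change of 0.23. Scaling moved this balance: 63.5% of all calls were higher as deposited. Median-of-ratios scaling gave 49.7% and a median of 0.00, scaling to the same quantiles in all libraries 48.2% and -0.03, and scaling to equal library totals 81.8% and 0.62. KS replicate 4 lay outside the range of the other 3 KS libraries in 81.1% of tested genes, against 27.3% to 47.0% for the other KS libraries. All 6 podocyte markers and all 10 proximal tubule markers had reads in both groups. Summed proximal tubule markers ran from 351000 to 403300 in control and from 41430 to 103300 in KS libraries. Injured tubule markers ran from 19050 to 39440 and from 534700 to 852700, and macrophage markers from 1243 to 2175 and from 8777 to 12080. Spp1 made up most of the injured tubule sums, at 10434.8 to 28143.5 in control and 328004.9 to 687852.4 in KS libraries, while all 9 of those markers were called higher. The Y-linked gene Ddx3y was at 734.0 to 844.4 in control and at 0 in every KS library, and Xist, the RNA of the inactive X, was at 0.99 at most in control and at 9280.4 to 16095.2 in KS libraries. These values are the pattern of male tissue in every control and of female tissue in every KS library. Genotype, treatment and sex thus cannot be told apart here, for any gene described.

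Of the 10 p53 targets, 7 were called higher and 0 lower in the KS group, beside 43.9% and 25.2% of all tested genes. Phlda3, Btg2, Pmaip1, Bbc3 and Eda2r rose between 4.52-fold and 7.70-fold, Zmat3 rose 1.67-fold and Bax 1.35-fold. Mdm2, Ccng1 and Trp53inp1 did not pass the test. The groups did not overlap in 7 of the 10, against 41.0% of all tested genes that were higher without overlap and 24.1% that were lower without overlap. A call with a rise of at least 4-fold was made for 5 of the 10 and for 10.3% of all tested genes. The number was 4 (8.5% of all) under median-of-ratios scaling, where Btg2 was at 3.87-fold, and 5 (14.6%) under equal totals. It was 3 (5.3%) under quantile scaling, where Phlda3 was at 3.43-fold, Eda2r at 3.13-fold and Bbc3 at 4.06-fold. The median log2 fold change of the 10 was 1.46, beside 0.23 for all tested genes.

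**Figure D1:**
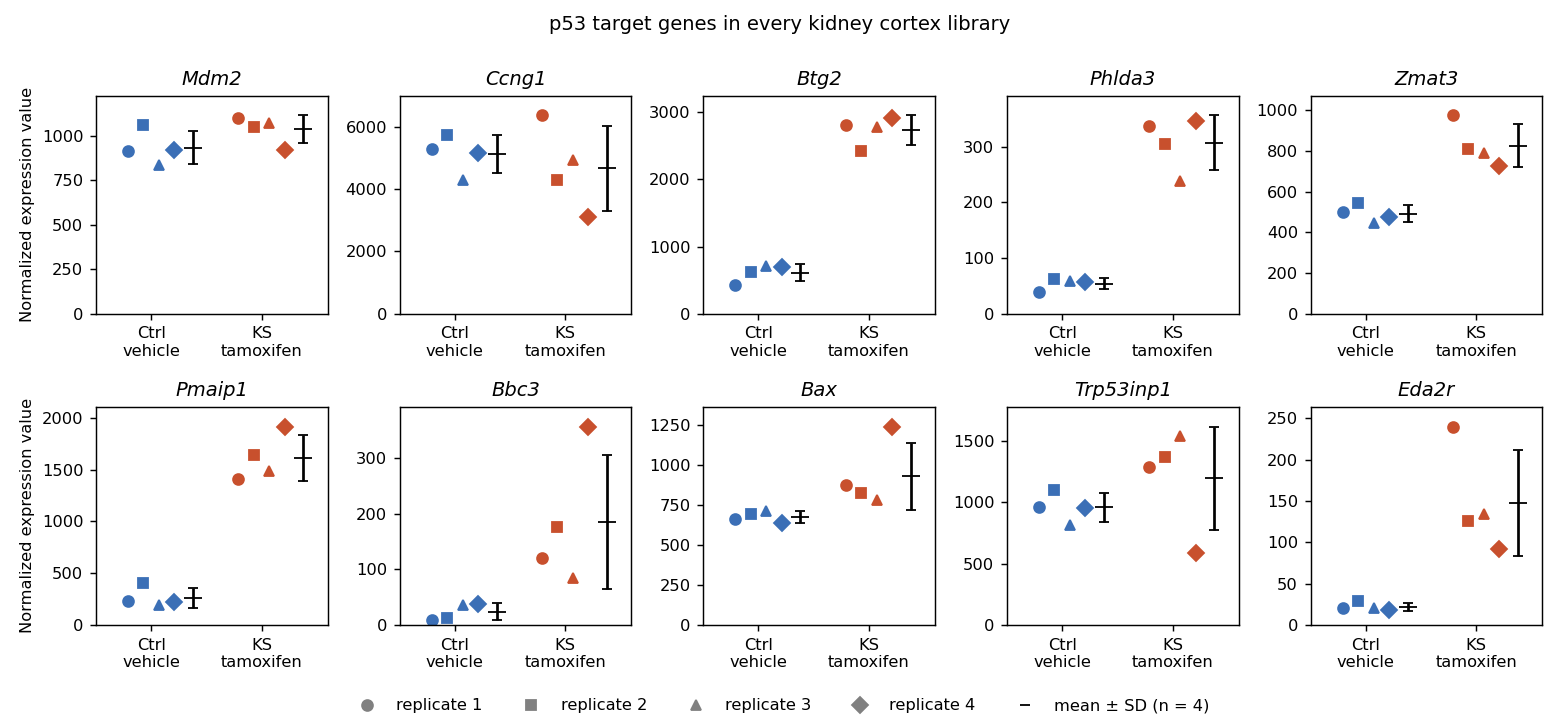
Deposited normalized expression values (vertical axes, linear from 0) of the 10 p53 targets in the 4 control (blue) and 4 KS libraries (red), with the mean and SD of each group in black. The KS values lie above all control values for Btg2, Phlda3, Zmat3, Pmaip1, Bbc3, Bax and Eda2r, and overlap with them for Mdm2, Ccng1 and Trp53inp1.

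Mdm2 and Ccng1 are feedback genes. Mdm2, which encodes the ligase that marks p53 for degradation, was at 916.8, 1058.8, 836.4 and 922.7 in control replicates 1 to 4. It was at 1099.4, 1050.8, 1071.3 and 922.2 in KS replicates 1 to 4. KS replicate 4 was level with control replicate 4, and 2 of the KS libraries lay above all controls. The means were 933.7 ± 92.3 (SD, n = 4) and 1036 ± 78.4, a log2 fold change of 0.15 ± 0.09 (SE) with a limma adjusted p of 0.174. Mdm2 stood 0.08 below the median change of all tested genes. It was called higher without KS replicate 4 (log2 fold change 0.21, limma adjusted p = 0.0484) and under equal totals (0.54), and its sign turned under median-of-ratios scaling (-0.07).

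Ccng1 encodes cyclin G1, which recruits a phosphatase that acts on MDM2, and it carries the closest paired half-site of those printed. Its control values were 5280.4, 5743.2, 4296.7 and 5146.4. The KS values were 6355.7, 4271.7, 4933.0 and 3095.5, so that KS replicate 1 was the highest and KS replicate 4 the lowest of all 8 libraries. The group means were 5117 ± 604 and 4664 ± 1360 (SD, n = 4 each). The log2 fold change was -0.17 ± 0.20 (limma adjusted p = 0.455), with the opposite sign in quantile-scaled values (0.26), under equal totals (0.21) and without KS replicate 4 (0.01).

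Arrest and growth restraint were represented by Btg2, Phlda3 and Zmat3. Btg2, an antiproliferative gene that is also an immediate early gene, was at 433.5, 614.9, 708.1 and 697.9 in control libraries. The KS values of 2812.4, 2417.4, 2780.2 and 2918.3 lay close together and far above the controls. With means of 613.6 ± 127 and 2732 ± 218, Btg2 rose 4.52-fold (log2 fold change 2.18 ± 0.15, limma adjusted p = 3.45e-06).

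Phlda3 encodes a small membrane-binding protein that competes with the kinase AKT for phosphoinositides. It was at 39.0, 62.8, 58.4 and 56.7 in control and at 338.1, 306.0, 237.8 and 346.5 in KS libraries. The lowest KS library was thus well above the highest control, at depths of 43 to 75 reads in control and 301 to 433 reads in KS libraries. The log2 fold change was 2.49 ± 0.19 (limma adjusted p = 5.09e-06). Zmat3, an RNA-binding zinc finger gene, was at 499.7, 545.3, 445.9 and 478.3 in control libraries. In KS libraries it was at 975.2, 808.4, 790.0 and 727.4. Its groups were separate and the rise was smaller, with a log2 fold change of 0.74 ± 0.11 (limma adjusted p = 0.000227).

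The cell death genes differed in size of change. Pmaip1 encodes NOXA and Bbc3 encodes PUMA, proteins with only a BH3 domain that block the guardians of the mitochondrion. Control values of Pmaip1 were 228.5, 402.1, 193.3 and 219.6, where replicate 2 stood above the other 3. Its KS values were 1413.2, 1641.3, 1488.4 and 1915.4. All KS libraries exceeded the highest control more than the controls differed among themselves. Pmaip1 rose by a log2 fold change of 2.68 ± 0.21 (limma adjusted p = 6.55e-06), from 260.9 ± 95.3 to 1615 ± 222.

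Bbc3 was low and uneven in both groups. The controls were at 8.16, 13.4, 35.4 and 38.1, which came from 9, 16, 37 and 37 reads. KS libraries were at 120.2, 176.0, 85.3 and 356.3, from 154, 180, 108 and 362 reads. Every KS value lay above every control, while the highest KS value was 4.18 times the lowest and the highest control 4.67 times the lowest. Its log2 fold change of 2.95 ± 0.56 (limma adjusted p = 0.0012) had the widest standard error of the 10 and ran from 2.55 to 3.25 when libraries were left out in turn. It was the highest of the 10 as deposited, but not under quantile scaling (2.02 against 2.52 for Pmaip1), with a pseudocount of 10, without control replicate 1 or 2 or without KS replicate 4.

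Bax encodes the pore-forming protein of the mitochondrial outer membrane that such BH3 proteins release. It was at 661.1, 695.3, 716.7 and 636.1 in control and at 874.5, 827.0, 784.5 and 1242.1 in KS libraries. KS replicate 4 was the highest, and the other 3 KS libraries were also above every control. The log2 fold change was 0.44 ± 0.14 (limma adjusted p = 0.0184), and 0.29 without KS replicate 4, where it was still called (adjusted p = 0.00556). The call ended under median-of-ratios scaling (0.21, limma adjusted p = 0.212), where the groups overlapped. It also ended under quantile scaling (0.34, limma adjusted p = 0.0804) and without control replicates 2 and 3 (0.50, limma adjusted p = 0.0583).

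Trp53inp1, a stress-induced gene whose protein promotes p53 activity and autophagy, was at 956.7, 1095.7, 816.3 and 952.6 in control libraries. KS replicates 1 to 3, at 1282.1, 1364.6 and 1540.6, lay above all controls, and KS replicate 4, at 584.6, lay below all of them. Over all libraries the log2 fold change was 0.24 ± 0.27 (limma adjusted p = 0.456). Without KS replicate 4 it was 0.55 and was called (limma adjusted p = 0.00121).

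Eda2r encodes a receptor of the tumour necrosis factor family that binds the A2 form of ectodysplasin, and the gene lies on the X chromosome. Control values were 20, 29.3, 20.1 and 18.6, from 18 to 35 reads, and KS values were 239.7, 125.1, 134.3 and 91.5, from 93 to 307 reads. The lowest KS library was above the highest control by more than the whole control range. The log2 fold change was 2.63 ± 0.29 (limma adjusted p = 4.46e-05). As for every gene here, the part of sex in this value cannot be told apart from genotype and treatment. For each of the 7 called genes the exact permutation p (two-sided) was 0.0286, the smallest that 4 against 4 libraries allow. The same exact permutation test gave p = 0.171 for Mdm2 and p = 0.514 for both Ccng1 and Trp53inp1.

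**Figure D2:**
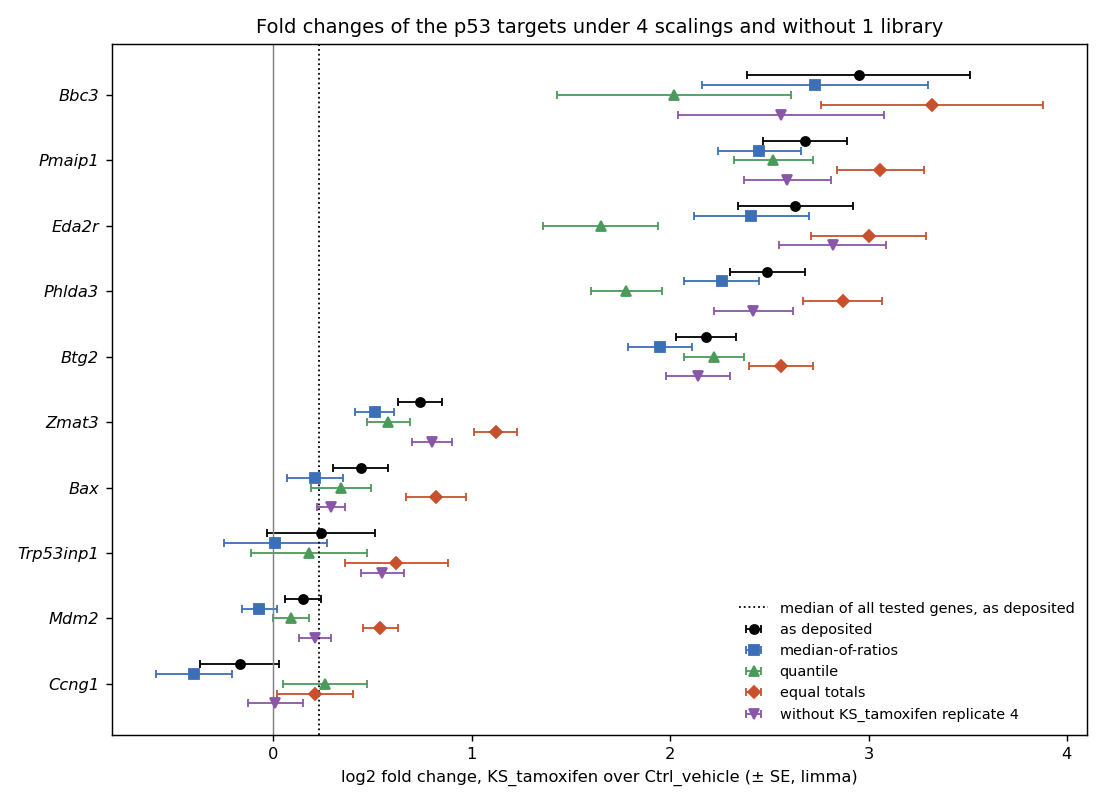
Log2 fold change (KS over control, horizontal axis, bars are the limma standard error) of each p53 target as deposited, under 3 other scalings and without KS replicate 4. Bbc3, Pmaip1, Eda2r, Phlda3 and Btg2 stay above 1.6 in each setting drawn, while Mdm2 and Ccng1 lie on both sides of 0.

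Levels of different genes were compared per kilobase of the longest coding transcript in GENCODE M21, since the deposited values are not divided by length. In control libraries Ccng1 was highest at 1460 per kilobase, followed by Bax (616), Mdm2 (297), Btg2 (224), Trp53inp1 (177), Pmaip1 (95.7), Zmat3 (63.1), Phlda3 (37.8), Bbc3 (13.1) and Eda2r (4.63). The ranges of Btg2 and Trp53inp1 overlapped, as did those of Bbc3 and Eda2r, and the other neighbours were apart. In KS libraries the order was Ccng1 (1330), Btg2 (996), Bax (847), Pmaip1 (592), Mdm2 (329), Trp53inp1 (221), Phlda3 (214), Zmat3 (106), Bbc3 (102) and Eda2r (31.1). Btg2 and Pmaip1 thus stood above Mdm2 per kilobase in KS libraries and below it in controls. In the KS group the ranges of Ccng1 and Btg2, Btg2 and Bax, Trp53inp1 and Phlda3, Zmat3 and Bbc3, and Bbc3 and Eda2r overlapped.

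In KS replicate 4 the 10 genes lay outside the range of the other 3 KS libraries, 5 above and 5 below. Most tested genes did so too, with 38.4% above and 42.8% below, so this is not particular to the 10. Bbc3 (2.91 times the mean of the other 3 on the log scale), Bax (1.5), Pmaip1 (1.27), Phlda3 (1.19) and Btg2 (1.1) were above. Trp53inp1 (0.42), Eda2r (0.58), Ccng1 (0.61), Zmat3 (0.85) and Mdm2 (0.86) were below. The same library had the lowest KS sums of proximal tubule (41430 against 68730 to 103300), fibroblast (2718 against 6508 to 8329) and endothelial markers (1206 against 2587 to 3054). Thick ascending limb (28310 against 52790 to 70950, mostly Umod) and podocyte markers (1775 against 3090 to 3807) were also lowest there. Collecting duct markers were not (18770 against 12230 to 21150). The neutrophil markers of KS replicate 4 had the highest sum, 449.8 against 35.9 to 92.4. The part of these cell types in the member values was not tested, and in bulk tissue fewer cells of a type and less RNA per cell cannot be told apart.

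**Figure D3:**
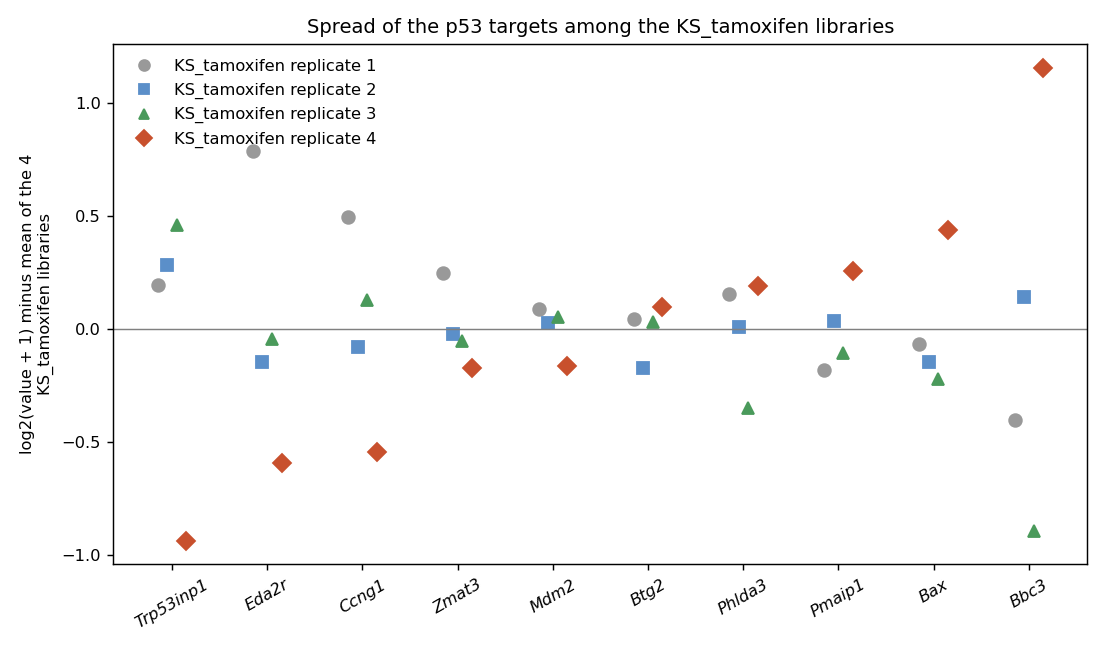
Difference of each KS library from the mean of the 4 KS libraries on the log2(value + 1) scale (vertical axis), 1 symbol per library, for the 10 p53 targets ordered by the position of KS replicate 4. The red diamonds of KS replicate 4 lie lowest for Trp53inp1, Eda2r, Ccng1, Zmat3 and Mdm2 and highest for Btg2, Phlda3, Pmaip1, Bax and Bbc3.

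Among the controls, replicate 2 was the highest of the 4 in 7 of the 10 genes, and in 32.9% of all tested genes. Injured tubule markers were uneven in the same group, at 37160 and 39440 in control replicates 2 and 3 and at 19050 and 19080 in replicates 1 and 4. Without replicates 2 and 3, 6 of the 10 genes were called higher, Bax being the one no longer called.

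Other genes that p53 activates were counted from a list of 46, of which 44 were in the table and 43 were tested. Of these 24 rose and 4 fell, against the 43.9% and 25.2% of all tested genes, at a median log2 fold change of 0.41. Median-of-ratios scaling gave counts of 19 and 9, beside 33.6% and 34.1% of all tested genes. Quantile scaling gave 15 and 8 (31.1% and 33.5% of all), and equal totals 33 and 2 (63.6% and 14.2% of all). These shares, and those as deposited, stand beside the counts of every list below for the same setting.

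Of 8 targets listed under cell cycle arrest 7 rose and 0 fell (5 and 0 under quantile scaling, 7 and 1 without control replicate 1). A place in this list does not show that a gene arrests the cycle here, and arrest was not tested. Cdkn1a, which encodes the kinase inhibitor p21, was at 125.1, 407.1, 164.6 and 279.4 in control and at 1950.4, 1810.4, 1896.9 and 2171.3 in KS libraries. All KS libraries were far above the controls, a log2 fold change of 3.14 ± 0.32 (limma adjusted p = 2.34e-05). Sfn, which encodes 14-3-3 sigma, rose 9.01-fold, the microtubule-binding gene Psrc1 7.20-fold and the phosphatase gene Ptp4a3 2.38-fold. Of 6 targets with secreted or shed products 5 rose and 0 fell. They included Tgfa, a ligand of the EGF receptor (9.19-fold), the matricellular gene Thbs1 (4.45-fold) and the chemokine gene Cx3cl1 (1.67-fold).

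Of 8 further death genes 3 rose and 1 fell. The counts were 2 and 1 in median-of-ratios, 1 and 1 in quantile and 6 and 0 in equal-totals scaling. Tnfrsf10b, the death receptor gene, rose 4.76-fold and Siva1 2.16-fold, a call that Siva1 lost under quantile scaling (limma adjusted p = 0.281). Apaf1, the apoptosome scaffold gene, rose 1.66-fold, and its call was lost in 7 alternatives, among them median-of-ratios rescaling (limma adjusted p = 0.0711). Ei24 fell 1.38-fold, which was not called under equal totals (limma adjusted p = 0.389). Fas, another death receptor gene, was at 184.8 ± 23.5 and 221.8 ± 59.9 and did not pass (limma adjusted p = 0.362), but was called higher without KS replicate 4 (log2 fold change 0.43, limma adjusted p = 0.0141) and under equal totals (0.61, limma adjusted p = 0.0191).

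Of 6 repair genes 4 rose and 0 fell as deposited. Under median-of-ratios scaling 1 rose and 2 fell, and with quantile-scaled values 0 rose and 1 fell. Ddb2, a sensor of ultraviolet damage, rose 1.87-fold, a call lost under quantile scaling (limma adjusted p = 0.104). The nuclease gene Ercc5 (1.32-fold), the replication clamp gene Pcna (1.29-fold) and the polymerase gene Polk (1.34-fold) lost their calls after both of these scalings. Of 10 metabolic targets 4 rose and 2 fell (7 and 2 under equal totals). The epoxide hydrolase gene Ephx1 rose 4.89-fold, Cpt1c 6.26-fold, the AMP kinase subunit gene Prkab1 1.95-fold and the stress sensor gene Sesn2 1.29-fold, the last not under median-of-ratios scaling (limma adjusted p = 0.154). Cpt1c was at a mean of 6.95 in control and 50.5 in KS libraries, from 30 and 224 reads in all. It passed the filter on low values only through the KS group. With a mean of at least 100, 9 metabolic targets were tested, of which 3 rose and 2 fell. Dcxr, a sugar reductase gene, fell 3.83-fold and the mitochondrial dehydrogenase gene Aldh4a1 2.97-fold, beside the lower proximal tubule markers given above, whose part was not tested.

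Of 5 feedback targets other than Mdm2 and Ccng1, 1 rose and 1 fell. Feedback counts were 1 and 4 in median-of-ratios, 0 and 3 in quantile and 3 and 0 in equal-totals scaling. Ppm1d, which encodes the WIP1 phosphatase that acts on p53, rose 1.45-fold, a call lost under quantile scaling (limma adjusted p = 0.246). Rchy1, which encodes the p53 ubiquitin ligase PIRH2, fell 1.21-fold, which was not called under equal totals (limma adjusted p = 0.165). Called genes of these role lists had an adjusted p between 5.52e-07 and 0.0207 by limma.

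**Figure D4:**
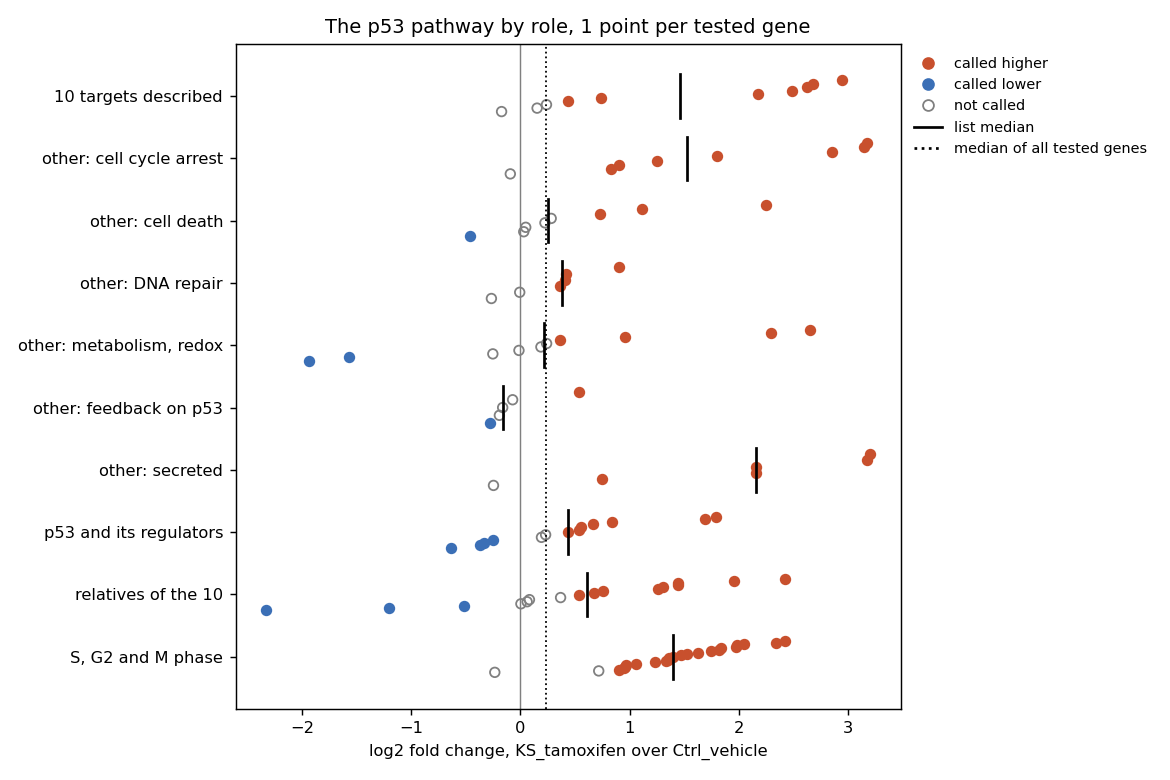
Log2 fold change (KS over control, horizontal axis) of each tested gene of the p53 pathway lists, with calls filled red (higher) or blue (lower), list medians as bars and the median of all tested genes dotted. The medians of the 10 targets (1.46), the other genes listed under arrest (1.53) and the secreted targets (2.15) lie to the right of those of death (0.25), repair (0.38), metabolism (0.21) and feedback (-0.16).

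The transcript of p53 itself was also higher. Trp53 was at 570.4, 568.8, 589.5 and 578.4 in control libraries and at 958.0, 1070.4, 837.4 and 1306.1 in KS libraries. The controls were nearly level and every KS library was above them, a 1.78-fold rise (log2 fold change 0.83 ± 0.13, limma adjusted p = 0.000276). It was called higher in every alternative, at 0.61 under median-of-ratios scaling. Of 13 tested relatives and upstream regulators of p53, 7 rose and 4 fell, beside 43.9% and 25.2% of all tested genes. The counts were 4 and 4 under quantile scaling (31.1% and 33.5% of all) and 9 and 0 under equal totals (63.6% and 14.2% of all). Without control replicates 2 and 3 they were 6 and 2. The kinase gene Chek1 (3.46-fold), the p53-binding protein gene Trp53bp1 (1.58-fold), the acetyltransferase genes Kat5 (1.47-fold) and Ep300 (1.35-fold), Mdm4 (1.45-fold) and Trp63, a p53 relative (3.22-fold), rose. Chek1 and Trp63 lost their calls under quantile scaling (limma adjusted p = 0.109 and 0.330), Ep300 under median-of-ratios scaling (0.0519) and Mdm4 after both (0.0754 after median-of-ratios). Trp63 also lost its call without control replicates 2 and 3 (limma adjusted p = 0.126). Its groups overlapped, since control replicate 1 was at 28.1, within the KS range of 27.7 to 30.3. Trp63 had 48 reads in all control and 131 in all KS libraries.

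Genes that fell were the kinase gene Hipk2 (1.55-fold), Prkdc (1.29-fold) and Atr (1.26-fold), kinase genes of the DNA damage response, and Usp7 (1.19-fold), which encodes the enzyme that removes ubiquitin from MDM2. All 4 lost their calls under equal totals, Usp7 also under quantile scaling, Prkdc without control replicates 2 and 3 and Atr without control replicate 1 or 2 (limma adjusted p = 0.0587 and 0.0512) or without replicates 2 and 3. The damage kinase genes Atm (352.0 ± 43 and 401.0 ± 30) and Chek2 (131.5 ± 13 and 155.5 ± 28) did not pass as deposited. Both were called higher under equal totals (0.58 and 0.61), Atm also without control replicate 1 (0.28), and Chek2 was called lower in quantile-scaled values (-0.44). Trp73 and Cdkn2a were below the filter, and Cdkn2a was at 0 in every control library.

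Genes of cell division, which p53 and p21 usually hold down, mostly rose as deposited. Of 23 tested genes of S, G2 and M phase 21 rose and 0 fell, beside 43.9% and 25.2% of all tested genes. Their median log2 fold change was 1.40. Under quantile scaling 9 rose and 1 fell (31.1% and 33.5% of all), at a median of 0.46. Mki67, a marker of cycling cells, rose 3.92-fold, from 186.2 ± 80.3 to 688.9 ± 58.5. The checkpoint gene Bub1b rose 5.37-fold, the ubiquitin-conjugating enzyme gene Ube2c 4.12-fold and the centromere histone gene Cenpa 2.54-fold, with limma adjusted p from 1.18e-05 to 0.00011 for these 4. Immediate early genes, a class to which Btg2 also belongs, rose in 11 of 14 and fell in 0, at a median of 2.64. Klf6 rose 7.47-fold, Myc 12.4-fold, Atf3 7.0-fold and Egr1 11.1-fold (limma adjusted p from 7.57e-07 to 1.23e-05), and the part of such stimuli in Btg2 was not tested.

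Close relatives of the 10 genes were set beside them as log2 ratios within a library. Such a ratio is not changed by 1 factor per library, apart from the pseudocount in genes with low values, but quantile scaling can change it. In quantile-scaled values, added after seeing the data, the difference moved from -0.85 to -0.24 for Ccng1 to Ccng2 and from 1.42 to 1.99 for Btg2 to Btg3. It moved from 1.26 to 1.8 for Zmat3 to Zmat1 and from 0.18 to -0.40 for Trp53inp1 to Trp53inp2, and from 1.51 to 0.91 for Bbc3 to Bcl2l11. Of 16 tested relatives 9 rose and 3 fell as deposited, beside 43.9% and 25.2% of all tested genes. Median-of-ratios and quantile scaling each left 15 relatives to test and gave 7 and 3, and equal totals gave 12 and 2 of 16. The number that fell was 2 without control replicate 1, 2 or 4, without KS replicate 1 or 4 and without control replicates 2 and 3, fits in which Zmat1 lost its call. Of 14 ratios, including Bax to Bcl2, 5 were higher and 1 lower in the KS group without overlap, and 8 overlapped. Each of these 6 had an exact permutation p of 0.0286, the smallest possible, and 0.0667 after adjustment over the 14 pairs, so none passed. The share of ratios without overlap among other gene pairs was not computed. Of single tested genes 41.0% were higher and 24.1% lower without overlap, so groups that lie apart are common here.

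Within the Phlda family the relatives parted. Phlda2, an imprinted relative, fell 5.03-fold (385.6 ± 20.7 to 77.0 ± 15.7) while Phlda1 rose 3.87-fold. The log2 ratio of Phlda3 to Phlda2 was between -3.26 and -2.51 in control and between 1.81 and 2.12 in KS libraries, a difference of 4.82. The ratio of Phlda3 to Phlda1 overlapped between the groups (difference 0.53, exact permutation p = 0.114).

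In the BTG family Btg1 rose 2.72-fold and Btg3 1.68-fold, the latter not under quantile scaling (limma adjusted p = 0.123). Their ratios to Btg2 still differed without overlap, by 0.73 for Btg2 to Btg1 and 1.42 for Btg2 to Btg3. Zmat1 fell 1.43-fold, a call lost in 7 alternatives, and Zmat3 to Zmat1 differed by 1.26. Cyclin G2, encoded by Ccng2, rose 1.6-fold while its relative Ccng1 did not pass the test. Ccng1 to Ccng2 was 3.44 ± 0.25 in control and 2.59 ± 0.39 in KS libraries on the log2 scale (SD, n = 4 each), with ranges that overlapped (exact permutation p = 0.0571). Mdm2 to Mdm4 was 1.45 ± 0.20 and 1.06 ± 0.23 (exact permutation p = 0.0857).

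**Figure D5:**
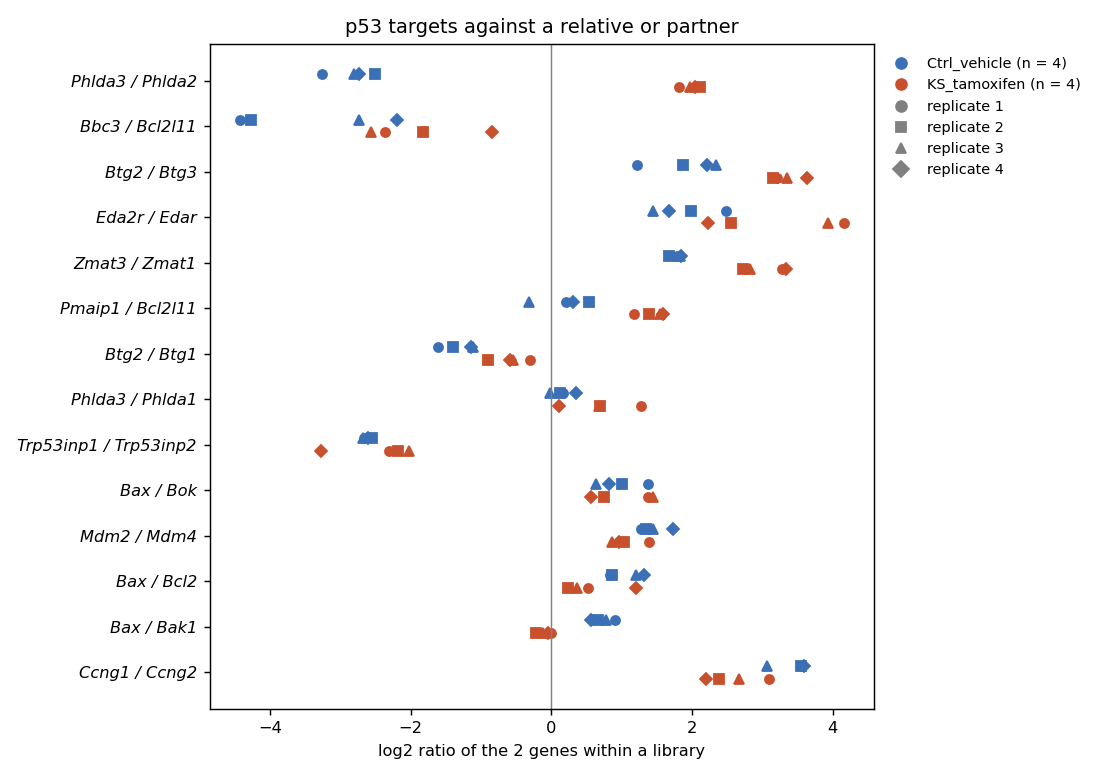
Log2 ratio of a p53 target to a relative or partner gene within each library (horizontal axis), control in blue and KS in red, 1 symbol per replicate. The groups are apart for Phlda3 to Phlda2, Btg2 to Btg1 and Btg3, Pmaip1 to Bcl2l11, Zmat3 to Zmat1 and Bax to Bak1, and overlap in the other 8.

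Among the BCL2 family, Bak1, the other pore-forming gene, rose 2.40-fold, from 409.6 ± 38.0 to 993.7 ± 195, where Bax rose 1.35-fold. Bax to Bak1 was between 0.56 and 0.90 in control and between -0.22 and -0.01 in KS libraries on values not divided by length, so all KS ratios lay below all control ratios. The BH3 genes Bmf and Bcl2l11 rose 5.36-fold and 2.71-fold, Bid fell 2.31-fold, and Bad (520.1 ± 88.3 and 518.9 ± 64.6), Bik (236.6 ± 36.6 and 252.8 ± 60.8) and the BAX relative Bok (354.8 ± 85.7 and 490.0 ± 252) did not pass as deposited. Bad and Bik were called higher under equal totals (0.39 and 0.46). Pmaip1 to Bcl2l11 differed by 1.24 without overlap, and Bbc3 to Bcl2l11 by 1.51 with overlap (exact permutation p = 0.114).

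The guardians that these proteins oppose moved as well. Of 4 tested, Mcl1, the main partner of NOXA, rose 1.97-fold (2958 ± 204 to 5816 ± 423), Bcl2 1.87-fold and Bcl2l1 1.37-fold, while Bcl2l2 fell 1.27-fold. Bcl2l1 was not called under median-of-ratios scaling (limma adjusted p = 0.0778), nor Bcl2l2 under equal totals (limma adjusted p = 0.671). Bax to Bcl2 was 1.05 ± 0.25 in control and 0.59 ± 0.43 in KS libraries, with overlapping ranges.

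For Trp53inp1 and Eda2r the relatives gave less. Trp53inp2 was at 5889 ± 500 and 6134 ± 298 and did not pass as deposited (called higher in quantile-scaled values, 0.57, and under equal totals, 0.45). Trp53inp1 to Trp53inp2 lay between -2.68 and -2.55 in control, and in KS libraries at -2.31, -2.18, -2.03 and, in replicate 4, -3.28. Edar, the receptor for the A1 form of ectodysplasin, rose 2.48-fold from values of 2.72 to 6.70. Its means were 5.32 in control and 14.9 in KS libraries, from 23 and 66 reads in all. Edar thus passed the filter on low values only through the KS group, and its rise is read with that limit. Eda2r to Edar overlapped between groups (exact permutation p = 0.0571). Tnfrsf19, Hrk and Zmat4 were below the filter.

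The gene with the most similar profile over the 8 libraries was sought for each of the 10, as the smallest root mean square difference of centred log2 values. It was Adamts1 for Pmaip1 (0.098), Gpsm1 for Btg2 (0.149), Slc38a1 for Phlda3 (0.159), Cldn1 for Eda2r (0.245) and Klc3 for Bbc3 (0.254). For the genes with small changes it was Fam160b2 for Bax (0.047), Agpat5 for Mdm2 (0.055), Nr3c2 for Zmat3 (0.067), Tmx1 for Ccng1 (0.089) and Cd93 for Trp53inp1 (0.106).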

How the data were processed

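Poly(A) RNA of kidney cortex was sequenced with a stranded kit, per the labels' protocols, in 4 Ctrl and 4 KS libraries, grouped by their titles. The deposited values are a normalized signal per gene and library. The submitters' processing notes name RSEM, SAMtools, Picard 1.64 and mm9. For the aligner, annotation and strand setting, no source used here gives a name. Per the values, the upper quartile above 0 is about 1000 in each library. RSEM shares reads among similar genes, so values of close relatives and of overlapping genes are uncertain.

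Genes with a mean of at least 10 were tested (13677, leaving out 8028) as log2(value + 1) with limma 3.58.1 in R 4.3.3 (trended variances, 6 residual degrees of freedom), adjusted by Benjamini-Hochberg over all tested genes and called at an adjusted p under 0.05. Fold changes are antilogs on that scale, which understates changes of low genes. The filter used the mean over all 8 libraries, so a gene below 10 in 1 group could pass through the other, and some listed genes did. Single genes and ratios also had a two-sided exact permutation test over 70 assignments. Whether libraries come from separate animals is not stated in the labels. If not, p-values cover spread that may be technical. The sample-sheet numbers recur in both groups, and run and group cannot be told apart.

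Alternatives were pseudocounts of 0.5 and 10, no filter, a mean of at least 100, 3 rescalings, no trend, a replicate block and left-out libraries. The scripts were tested on simulated data. Named were all 10 members, all regulators and relatives, up to 4 called genes by smallest p in a list's main direction and 2 against it, and the nearest profile of each member. Fas, Ddx3y and the sums of marker lists were chosen after their values were seen. Members and lists were chosen with earlier results of these data known. One gene that the rule names is not reported here.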

Additional observations from a re-analysis of the deposited data

Results flagged for a closer look

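The highest or lowest library stood far from the other 3 of its group in 13 of 172 groups examined over the 10 targets and the pathway genes, where chance flags about 1 in 20. Among the 10 targets, both cases were control replicate 2, with Pmaip1 at 402.1 against 193.3 to 228.5 and Eda2r at 29.3 against 18.6 to 20.1. Other control libraries that stood apart were replicate 1 for Trp63 (28.1 against 4.2 to 6.7) and Atm (417.1 against 328.2 to 331.7), and replicate 2 for Aldh4a1 (9761.7 against 11998.2 to 12336.1). KS replicate 4 stood apart for Pcna (433.1), Rfwd2 (370.1), Igfbp3 (783.5), Atr (487.2) and Bik (343.5). KS replicate 3 did so for Psrc1 (81.4) and Bcl2l11 (507.2), and KS replicate 1 for Gtse1 (136.6).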

How the results depend on the processing

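The count of targets called higher was 7 and stayed between 6 and 9 in 18 alternatives, and none was called lower in any of them. As deposited 43.9% of all tested genes were called higher and 25.2% lower. The count was 6 under median-of-ratios scaling (33.6% and 34.1% of all) and under quantile scaling (31.1% and 33.5% of all). It was 9 under equal totals, where 63.6% of all tested genes were called higher and 14.2% lower. The count was also 9 without KS replicate 4, where 6296 of 13613 tested genes were called higher and 3632 lower. Phlda3, Btg2, Pmaip1, Bbc3 and Zmat3 were called higher in all 18, and Eda2r in the 17 that tested it, since a mean of at least 100 removed it. Under median-of-ratios scaling the log2 fold change was -0.07 for Mdm2 and 0.21 for Bax (not called). Under quantile scaling it was 0.26 for Ccng1 and 0.34 for Bax (not called). Under equal totals it was 0.54 for Mdm2 and 0.62 for Trp53inp1 (both called) and 0.21 for Ccng1. Bax was at 0.50 and not called without control replicates 2 and 3. When each library was left out in turn, Mdm2 ranged from 0.10 to 0.21, Ccng1 from -0.34 to 0.01 and Trp53inp1 from 0.08 to 0.55. The upper ends of Ccng1 and Trp53inp1 were those without KS replicate 4. Mdm2 was at 0.21 both without control replicate 2 and without KS replicate 4. Of the other p53 targets 15 rose under quantile scaling, and 9, 8 and 2 fell under median-of-ratios scaling, quantile normalization and under equal totals. The causes were not tested. Replicate numbers did not pair the libraries: deviations of same-numbered libraries correlated from -0.169 to 0.144 and 4 of 8 libraries correlated best with their own number. With the replicate block 7 targets were called higher, as without it, with a log2 fold change of 0.44 for Bax, and 9318 genes in place of 9454 were called. Depth limits Bbc3 and Eda2r most, with at most 37 and 35 reads in a control library.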
